A study of Mus musculus with 42 samples.

Results

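*Syt13*, *Pclo*, *Rimbp2*, *Cadps*, *Rab3b*, *Myrip*, *Kif1a* and *Cacna1h* encode parts of the machinery that neurons and endocrine cells use to release secretory vesicles. These 8 genes were chosen by their rise in mutant distal colon in these same libraries, so their distal baseline values are given below as a description, without a test. All 8 were found in each of the 9 deposited tables, among 20462 genes listed in any table. The series holds 42 bulk RNA-seq libraries in 14 conditions and asks how loss of the corepressor MTG16, or of its binding to E proteins, alters the mouse colon.

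All mice were on a C57/BL6 background and at least 8 weeks old, and each mutant group was set against WT littermates of its own colony. Mtg16-/- mice (Mtg16-null in the labels) carry a null allele on both chromosomes. Mtg16 T/T mice are homozygous for a point mutation that replaces a proline with threonine and weakens the binding of MTG16 to E proteins. Untreated crypts, freed by chelation, came from the 5 cm next to the cecum (proximal) or next to the anus (distal). There were 2 proximal Mtg16-/- and 2 WT libraries, 2 proximal Mtg16 T/T and 2 WT, 4 distal Mtg16-/- and 4 WT, and 4 distal Mtg16 T/T and 3 WT. Distal crypts were also taken after 5 days of 2% dextran sulfate sodium (DSS) in the drinking water, which injures the colonic epithelium, and 4 days of recovery, from 4 Mtg16-/- and 3 WT mice and from 3 Mtg16 T/T and 3 WT. Distal tumors, dissected whole and not as crypts, came from 3 Mtg16 T/T and 3 WT mice given 10 mg/kg azoxymethane and 3 cycles of 3% DSS. The labels number the replicates without naming an animal for each, so the p-values measure the spread between these libraries. Values are the deposited counts after DESeq2 size-factor scaling within a table, called normalized counts, and are compared only within a table. A change is given as the log2 fold change of the normalized count plus 1, with its standard error (SE).

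Regulated exocytosis moves a cargo-filled vesicle along microtubules, docks it at the plasma membrane through Rab3 or Rab27 and their effectors, primes it, and lets calcium trigger fusion by SNARE proteins. Enteroendocrine cells, the scattered hormone-producing cells of the gut epithelium, release peptides and serotonin from dense-core vesicles with this machinery and share many of its genes with neurons. MTG16 is a corepressor whose partners include the E proteins, basic helix-loop-helix factors that bind the E box, CANNTG.

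The bases before the RefSeq starts of *Rimbp2*, *Pclo*, *Rab3b* and *Myrip* are printed because they range from 4 E boxes to 1 in genes that moved differently below. They are RefSeq promoter windows (GRCm38.p6, each read 5′ to 3′ on the gene's strand), and capitals mark every match to CANNTG, which reads the same on both strands.
Rimbp2, chr5:128953487-128953736, minus strand: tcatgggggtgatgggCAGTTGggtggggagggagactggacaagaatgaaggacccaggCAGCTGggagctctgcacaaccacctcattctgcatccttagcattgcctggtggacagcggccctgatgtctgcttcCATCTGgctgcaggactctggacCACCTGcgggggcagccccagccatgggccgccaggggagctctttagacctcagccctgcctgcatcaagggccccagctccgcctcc
Pclo, chr5:14514668-14514917, plus strand: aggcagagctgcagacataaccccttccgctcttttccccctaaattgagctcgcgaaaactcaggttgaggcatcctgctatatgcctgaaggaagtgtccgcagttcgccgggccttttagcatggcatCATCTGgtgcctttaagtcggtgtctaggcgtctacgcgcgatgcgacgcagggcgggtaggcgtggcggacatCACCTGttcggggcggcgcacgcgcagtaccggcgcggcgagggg
Rab3b, chr4:108878820-108879062, plus strand: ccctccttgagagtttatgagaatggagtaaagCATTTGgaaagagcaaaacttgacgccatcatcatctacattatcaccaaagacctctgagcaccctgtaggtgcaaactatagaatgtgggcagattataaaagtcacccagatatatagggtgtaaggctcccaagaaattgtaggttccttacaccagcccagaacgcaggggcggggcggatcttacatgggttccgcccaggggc
Myrip, chr9:120303823-120303935, plus strand: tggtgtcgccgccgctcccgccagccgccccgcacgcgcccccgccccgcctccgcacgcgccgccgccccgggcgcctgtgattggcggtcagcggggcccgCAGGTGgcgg
The *Rab3b* and *Myrip* windows were printed for 243 and 113 bases, up to the first exon that they reach. The *Myrip* window lies inside the longer span that GENCODE gives the gene. Of the 8 genes, 6 had a RefSeq entry, with 7 windows, and *Syt13* and *Cacna1h* did not. Over 250 bases before the start, 6 of the 7 windows held at least 1 CANNTG, as did 66.2% of 32851 windows of the same length over all genes. The *Cadps* window held none. The form CACCTG or CAGGTG was present in 4 of the 7 windows, against 17.2% of all windows. TATAAA, counted on either strand, was present in the *Rab3b* window alone among the 7 and in 12.4% of all windows. The windows also differed in CG dinucleotides, with 41 before *Myrip*, 25 before *Pclo*, 6 before *Rab3b* and 4 before *Rimbp2*. A match to these letters is a description of the window and not a binding site.

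In GRCm38 with GENCODE M21 the genes lie on 7 chromosomes: *Syt13* at chr2:92915098-92956058, *Pclo* at chr5:14514918-14863459, *Rimbp2* at chr5:128757791-128953486, *Cadps* at chr14:12372563-12823079, *Rab3b* at chr4:108879063-108943324, *Myrip* at chr9:120301513-120474841, *Kif1a* at chr1:93015464-93101951 and *Cacna1h* at chr17:25374285-25433783. The 3′ end of *Cacna1h* overlaps *Tpsg1* on the opposite strand, and whether the counting used strand is not given in the sources used here.

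The library labelled distal Mtg16-/- replicate 2 stood apart from the other distal libraries. *Hoxd13*, a homeobox gene of the hindmost body, was listed at 0 there and at 4180 to 5854 in the other 3 distal Mtg16-/- libraries. *Hoxb13* was at 245 there against 17410 to 23430, and *Abca12*, a lipid transporter, at 9746 against 1.89 to 22.02. Its *Abca12* value lay within the range of the 8 proximal baseline libraries, 9049 to 13690, and its *Hoxb13* value lay between the 0 to 34.7 of 7 of them and the 249 of 1 WT library, levels set here across separately scaled tables. These segment genes were chosen after their values were seen. The changes of the 8 genes in distal Mtg16-/- crypts are given with and without it. Values of other genes there include it unless the text says otherwise. *Cbfa2t3*, the gene that encodes MTG16, was at 424 to 1095 in distal Mtg16-/- crypts against 1027 to 1809 in WT, and at 631 and 1057 against 1634 and 3221 in the proximal pairs. In untreated Mtg16 T/T crypts it was higher than in WT without overlap, at 1509 to 2196 against 937 to 1040.0 distally and 2529 and 2988 against 2034 and 2049 proximally, and it overlapped after DSS. Reads assigned to genes ranged from 32231389 to 74661922 (median 46659625) in the 38 libraries whose counts could be recovered.

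The RNA is from whole crypts, so the cell type that carries these transcripts was not measured, and more cells of a type cannot be told apart from more RNA per cell. The summed level of 20 enteroendocrine markers was 379 to 1200 CPM, the count scaled to the library's total, in the 36 crypt libraries, with all 20 detected in every crypt group. Among genes that define enteric neurons, which use the same machinery, *Prph* was at 0 to 8.05 normalized counts in crypts and *Elavl4* at 0 to 28.4. The glial gene *Sox10* did not exceed 2.11. The whole list of 12 enteric neuron genes, 9 to 12 of them listed in a table, was not at 0, and its summed level in untreated crypts was higher in every mutant than in every WT library: 419 to 601 against 216 to 254 in proximal Mtg16-/-, 334 to 400.4 against 179.9 to 229 in proximal Mtg16 T/T, 552 to 799 against 224 to 324 in distal Mtg16-/- and 301 to 426 against 249 to 276 in distal Mtg16 T/T. After DSS it was 970.3 to 1426 against 452.5 to 629.8 in Mtg16 T/T crypts without overlap, and 2599 to 5840 against 1846 to 2727 in Mtg16-/- crypts with overlap. *Ret*, a receptor tyrosine kinase, led the sum in every crypt table but the last, where the tubulin gene *Tubb3* averaged 3045 in Mtg16-/- and 1742 in WT crypts. limma called *Ret* higher in Mtg16-/- crypts after DSS (log2 1.44, adjusted p = 0.0111) and, without the library that stood apart, *Elavl3* (2.58, adjusted p = 0.0157) and *Nefm* (1.47, adjusted p = 0.036) in distal Mtg16-/- crypts, all named after their values were seen. The part of these genes in the values of the 8 was not tested.

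In WT colon, *Rab3b*, *Myrip* and *Cacna1h* differed between the 2 ends of the colon more than the other 5 genes did. The distal WT libraries also served as controls for choosing the genes, so the values are a description. *Rab3b*, a GTPase on secretory vesicles, was at 334, 203, 228 and 378 in distal WT crypts from the Mtg16-/- colony and at 237, 257 and 223 in the other colony. Proximal WT crypts of the same 2 colonies had it at 8.76 and 5.82, and at 18.6 and 41.5. The groups did not overlap, and the distal level was 17.0-fold the proximal (log2 4.09).

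*Myrip*, which links Rab27 on secretory granules to myosin motors, had the opposite order. It was at 26.9, 27.1, 30.9, 25.5, 22.2, 12.6 and 34.6 in the 7 distal WT libraries and at 463, 541, 469 and 487 in the 4 proximal ones, a distal level 0.0524 times the proximal (log2 -4.25). *Cacna1h*, the pore of the low-voltage-activated T-type calcium channel Cav3.2, was at 119 to 186 in distal crypts, and at 1127 and 738 (Mtg16-/- colony) and 615 and 603 (Mtg16 T/T colony) in proximal crypts (log2 -2.32). All 3 differences had the same direction in each colony by itself: *Rab3b* by log2 5.09 and 3.05, *Myrip* by -4.14 and -4.42 and *Cacna1h* by -2.57 and -2.09 in the Mtg16-/- and Mtg16 T/T colonies. *Rimbp2* and *Syt13* were also higher in every distal than in every proximal WT library (log2 0.78 and 0.35). *Kif1a* (0.90), *Cadps* (0.13) and *Pclo* (-0.06) overlapped. Thus 3 genes were higher and 2 lower without overlap, in a comparison where 14.1% and 15.9% of 13841 genes were, and where 20.1% and 22% passed limma's test. In the same fit 8 of 20 enteroendocrine markers were called higher distally and 7 lower. The calls were 4 and 2 of 7 goblet, 0 and 5 of 6 tuft and 0 and 3 of 6 immune markers, and their part in the 8 genes was not tested. The column headers carry number prefixes that divide the libraries. Within prefix 4149, the one that holds both segments, the changes of *Rab3b*, *Myrip* and *Cacna1h* were 5.17, -4.11 and -2.67.

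**Figure D1:**
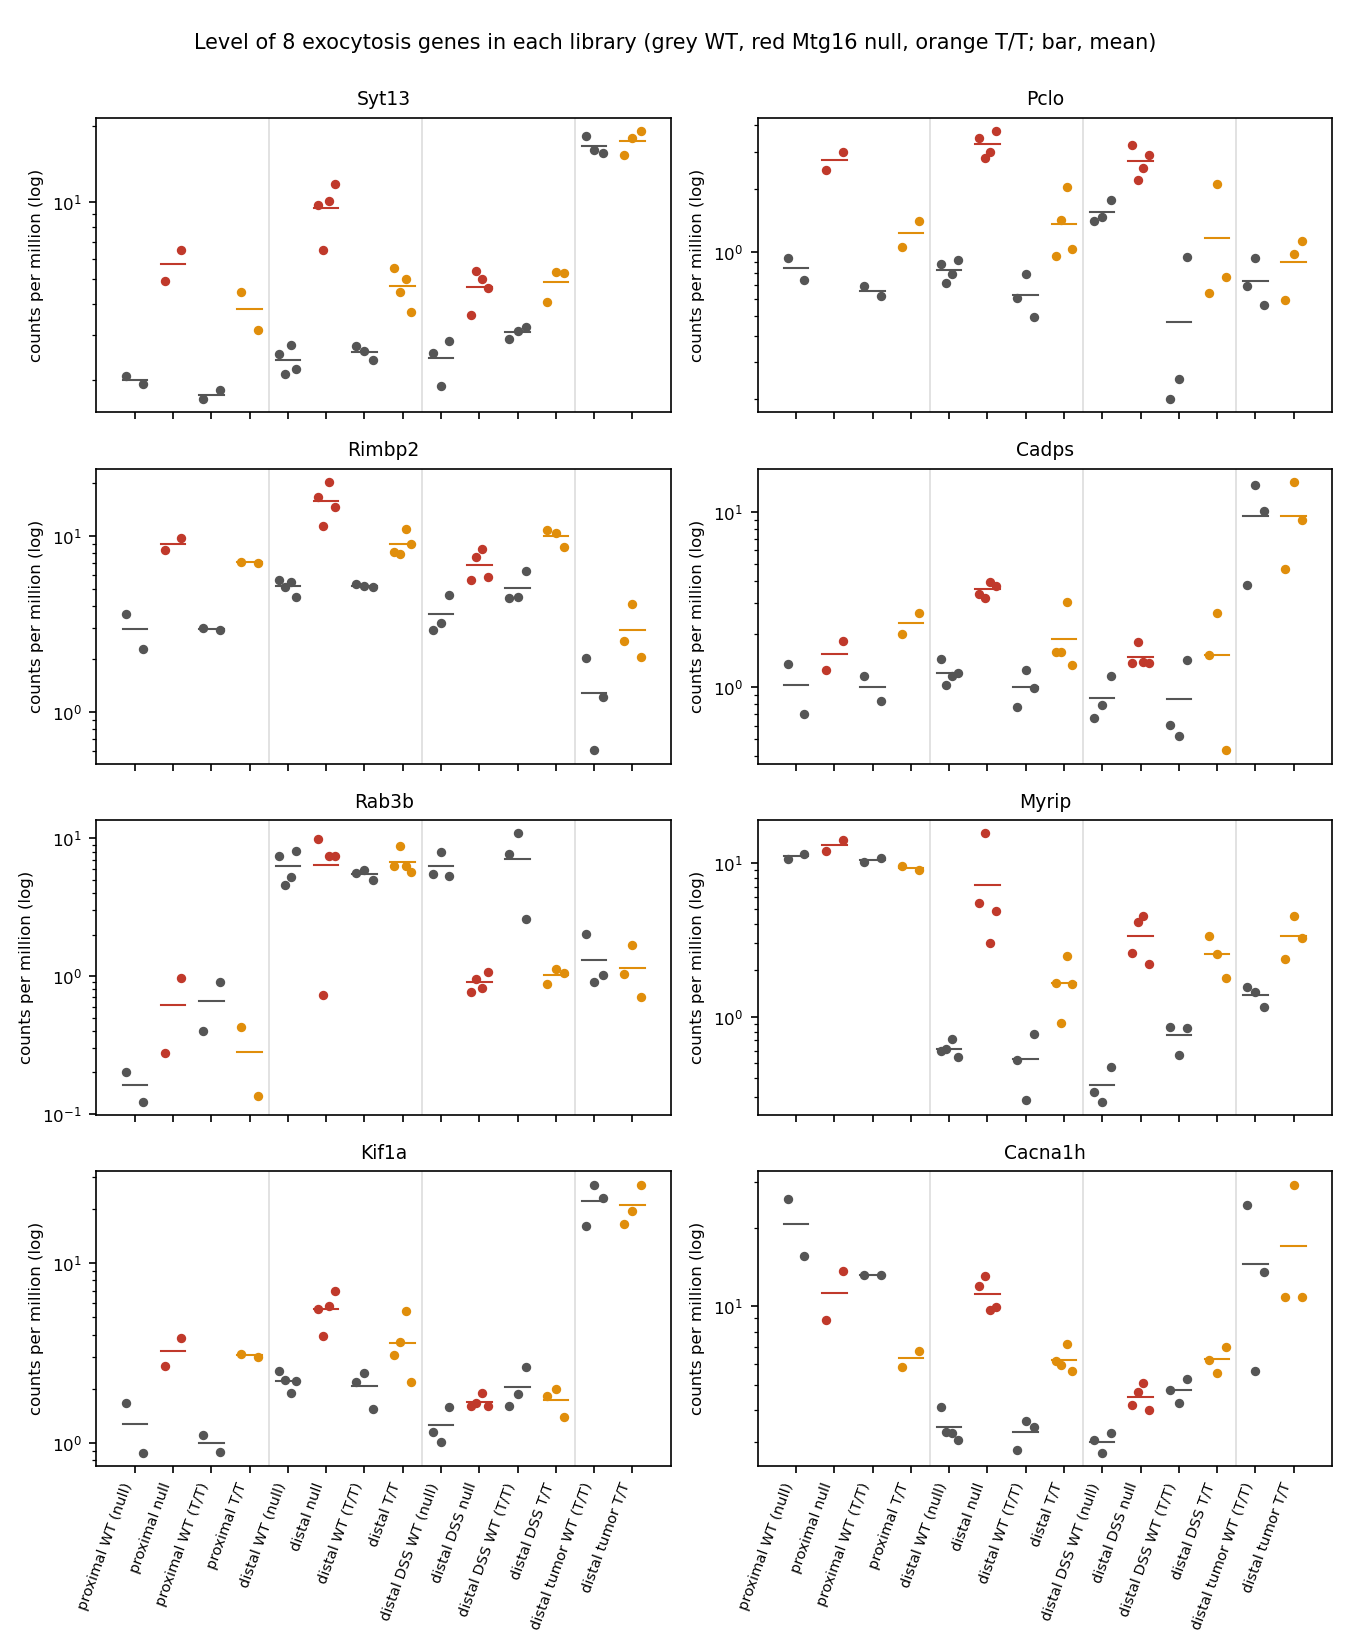
Level of each gene in CPM on a log axis in the 42 libraries, by condition; each point is a library, grey for WT, red for Mtg16-/- and orange for Mtg16 T/T, a bar is the mean of its condition, and the label in brackets after WT names the colony. By condition mean *Rab3b* was lowest and *Myrip* highest in proximal crypts, *Cacna1h* was higher in proximal WT (13.2 to 26.0 CPM) than in untreated or DSS-treated distal WT crypts (2.74 to 5.28 CPM), and 1 distal Mtg16-/- library lay with the proximal ones for *Rab3b* (0.735 CPM) and *Myrip* (15.5 CPM).

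Levels were set across genes only as CPM per kilobase of the longest transcript. In distal WT crypts of the Mtg16-/- colony *Rab3b* was highest at a mean of 1.90 (range 1.38 to 2.42, n = 4), followed by *Rimbp2* at 0.742, *Syt13* at 0.640, *Cacna1h* at 0.417, *Kif1a* at 0.270, *Cadps* at 0.153, *Myrip* at 0.125 and *Pclo* at 0.0409. *Rimbp2* (0.646 to 0.804) and *Syt13* (0.564 to 0.729) overlapped in that order, as did *Cadps* (0.130 to 0.184) and *Myrip* (0.111 to 0.145). In proximal WT crypts of the same colony *Cacna1h* (2.53, range 1.90 to 3.16, n = 2) and *Myrip* (2.25, range 2.17 to 2.33) were highest and overlapped each other, and *Rab3b* (0.0489) stood next to *Pclo* (0.0417) at the bottom. In proximal WT crypts of the other colony *Myrip* (2.06 to 2.18) was above *Cacna1h* (1.61 in both) without overlap, and *Rab3b* (0.120 to 0.275) overlapped *Cadps* (0.105 to 0.147) and *Kif1a* (0.109 to 0.135).

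In distal crypts at baseline, the contrast by which the genes were picked, 7 of the 8 were higher in every Mtg16-/- library than in every WT library, and *Rab3b* was not. Without overlap 2.58% of 13831 genes were higher, and 0.239% passed limma's test upward and 0% downward. Nothing is read from these counts for the 8 genes, since this contrast chose them.

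Among the docking and fusion genes, *Syt13*, a synaptotagmin that lacks the calcium-binding residues of its family, was at 445, 297, 442 and 544 in Mtg16-/- crypts and 118, 96.1, 122 and 106 in WT (3.81-fold, log2 1.93, SE 0.20). *Cadps*, or CAPS1, a priming factor of dense-core vesicles, was at 155, 147, 174 and 174 against 66.9, 46.3, 51.2 and 57.3 (2.92-fold, SE 0.18 on the log2 scale). Every mutant library lay well above the WT range for both. *Pclo*, the large active zone scaffold Piccolo, was at 159, 128, 131 and 173 against 40.6, 32.4, 35.0 and 43.7 (log2 1.93, SE 0.20). *Rimbp2*, which joins RIM scaffolds to calcium channels, was at 760.3, 515, 881 and 667 against 259.6, 232, 244 and 216 (log2 1.54, SE 0.17).

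The motor and channel genes showed the same separation. *Kif1a*, a kinesin that carries vesicle precursors, was at 253, 178, 252 and 322 in Mtg16-/- crypts and 117, 102, 84.9 and 105 in WT (log2 1.27, SE 0.21). *Cacna1h* was at 547, 598, 422 and 456 against 190.1, 149, 145 and 147 (log2 1.67, SE 0.16). Its overlapping neighbour *Tpsg1* was at 718 to 2430 against 1134 to 1751 and did not separate the groups.

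*Myrip* and *Rab3b* depended on the library that stood apart. *Myrip* was at 249, 708, 133 and 226 against 27.5, 27.8, 31.7 and 26.0, and its log2 change of 3.21 (SE 0.45) became 2.75 (SE 0.26) without that library, the one at 708. *Rab3b* was at 451, 33.5, 326 and 343 against 342, 208, 235 and 386. The groups overlapped, and the log2 change of -0.48 (SE 0.75) became 0.38 (SE 0.24) without the library at 33.5. The values of both genes in that library, 708 and 33.5, lay near their proximal levels, though these were scaled in other tables. For the other 6 genes leaving it out moved the log2 change by little, to 2.10 for *Syt13*, 2.00 for *Pclo*, 1.68 for *Rimbp2*, 1.59 for *Cadps*, 1.42 for *Kif1a* and 1.58 for *Cacna1h*, and the median of the 8 changes from 1.61 to 1.64. In the fit without it, 0.969% of 13720 genes were called higher and 0.0729% lower. The distal Mtg16-/- libraries carry 2 header prefixes, and the *Rab3b* change was 0.15 within prefix 4149 and -1.10 within prefix 5094, which holds that library, while the other 7 genes were higher within both.

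In distal Mtg16 T/T crypts, in which the point mutation weakens the binding to E proteins, the estimated changes were smaller, a difference that was not tested. *Syt13* was at 210.0, 176, 201 and 153 against 109, 107 and 99.0 in WT (log2 0.80, SE 0.15). *Rimbp2* was at 307, 309, 439 and 369 against 209.8, 213 and 209.8 (0.74, SE 0.15), and *Cacna1h* at 235, 236, 287 and 233 against 112, 149 and 142 (0.88, SE 0.15). The WT values of these 3 genes were tight and lay below every mutant library. *Myrip* was at 62.7, 35.7, 99.1 and 67.3 against 20.9, 11.8 and 31.9 (1.59, SE 0.43). *Pclo* was at 36.4 to 82.0 against 20.2 to 32.3 (1.02, SE 0.32), and *Cadps* at 55.1 to 122 against 30.3 to 50.9 (0.82, SE 0.33).

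*Kif1a* (89.8 to 217 against 63.9 to 100.9) and *Rab3b* (236 to 345 against 206 to 241) overlapped, at log2 0.70 (SE 0.32) and 0.25 (SE 0.16). The count was 6 of 8 higher without overlap and the median change 0.81. Over all genes 4.39% of 13535 were higher without overlap, with 0.0369% past limma's threshold upward and 0% downward, and again nothing is read from this for the chosen genes. Enteroendocrine markers were higher in the same libraries, with a summed level of 43590 to 55260 in distal Mtg16-/- against 17310 to 21650 in WT crypts and 21590 to 31460 in Mtg16 T/T against 16910 to 18640. The goblet cell marker sum was also higher without overlap in Mtg16 T/T crypts, at 608600 to 719000 against 485100 to 582100, but its leading gene *Fcgbp* averaged 396700 and 272100 of it, and the 7 tested markers had a median log2 change of -0.06 with 0 called. In distal Mtg16-/- crypts limma called 5 of the 20 enteroendocrine markers higher and 0 lower. Without the library that stood apart it called 15 higher and 0 lower. These fits called 0.239% and 0.969% of all genes higher. The vesicle protein genes *Chga* and *Chgb* rose in distal Mtg16-/- crypts (log2 1.52 and 1.48, limma adjusted p = 0.0201 and 0.0123), as did *Tph1*, the serotonin-synthesizing enzyme of enteroendocrine cells (1.73, adjusted p = 0.0201). The hormone gene *Gcg* was at 4054 to 4974 against 1630 to 3213 (adjusted p = 0.0817). *Pyy*, another hormone gene, was at 10900, 2159, 10130 and 12860 against 3384 to 4312, with the lowest value in the library that stood apart, and its log2 change of 0.95 (adjusted p = 1) became 1.55 (adjusted p = 0.000941) without it. In distal Mtg16 T/T crypts the 5 genes had log2 changes from 0.37 to 0.64, each at an adjusted p of 0.464 or 0.863. The part of the enteroendocrine and goblet cell markers in the values of the 8 genes was not tested.

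None of the proximal libraries took part in choosing the genes, though the labels do not say whether they came from the same mice as the distal ones. In Mtg16-/- crypts 6 of the 8 genes were higher in both mutant libraries than in both WT libraries and *Cacna1h* was lower in both, and limma called 0 of the 8 in either direction at an adjusted p under 0.05. At an unadjusted p under 0.05, 4 were higher and 1 lower, where 2.76% and 3.2% of all genes were. Over all 13944 genes tested, 17.5% were higher and 18.1% lower without overlap, and 0.0359% and 0.0287% were called. No count model was run here, because whole reads could not be recovered from the proximal tables.

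*Syt13* was at 238 and 321 in proximal Mtg16-/- crypts and 97.0 and 97.2 in WT (log2 1.501, SE 0.27, limma adjusted p = 0.227). *Rimbp2* was at 399 and 479 against 168 and 115 (1.65, SE 0.27, adjusted p = 0.189), and *Pclo* at 119 and 149 against 43.8 and 37.2 (1.69, SE 0.34, adjusted p = 0.293). In each of these 3 genes both mutant values exceeded both WT values, with 2 libraries a group. *Kif1a* was at 129.7 and 189.6 against 78.1 and 44.4 (1.40, SE 0.39, adjusted p = 0.583). *Cadps*, at 60.4 and 90.8 against 62.7 and 35.1, overlapped (0.65, SE 0.44).

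*Cacna1h* ran the other way, at 428 and 678 against 1215 and 787 (log2 -0.86, SE 0.29, adjusted p = 0.725). *Myrip*, already abundant in proximal WT crypts, was at 577 and 697 against 499 and 577 (0.24, SE 0.18), and *Rab3b*, scarce there, was at 13.4 and 47.9 against 9.45 and 6.20 (1.61, SE 0.75, adjusted p = 0.871). The *Rab3b* change was 1.35 to 2.495 when 1 other library was left out. Without Mtg16-/- replicate 2, the library at 47.9, *Rab3b* fell below the filter, so that range does not cover its omission. The median change of the 8 was 1.45, against 0 over all genes. *Tpsg1* was at 1998 and 2452 against 2962 and 2636, lower in both mutant libraries like *Cacna1h*, and its part in the *Cacna1h* values was not tested. The enteroendocrine sum was 28660 and 42320 against 21710 and 26450, and the enteric glia sum (28.9 and 33.6 against 13.4 and 25.8) was also higher without overlap. The goblet cell sum, which lacks the mucin gene *Muc2* because it was not listed, was 527400 and 628100 against 378400 and 431100. It was led by *Fcgbp* at means of 348700 and 139000, while the median log2 change of the 7 tested goblet markers was -0.52, with 1, *Tff3*, called higher.

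In proximal Mtg16 T/T crypts, from the other colony, *Rab3b* and *Myrip* changed with the opposite sign to proximal Mtg16-/- crypts, and the other genes with the same sign. Of the 8 genes 5 were higher and 2 lower without overlap, where 22.6% and 22.9% of 13767 genes were, and limma again called 0 in either direction, with 0.138% and 0.0944% of all genes called. At an unadjusted p under 0.05, 5 were higher and 1 lower, where 6.7% and 5.3% of all genes were. *Rimbp2* was at 313 and 315 against 135 and 128 (log2 1.25, SE 0.17, adjusted p = 0.0734), and *Kif1a* at 139 and 135 against 50.3 and 39.0 (1.60, SE 0.26, adjusted p = 0.107). *Syt13* was at 197 and 142 against 76.4 and 79.9 (1.09, SE 0.25, adjusted p = 0.204). For all 3 both mutant libraries were above both WT libraries.

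*Cadps* (88.9 and 119 against 52.3 and 36.2) and *Pclo* (46.6 and 63.4 against 31.2 and 27.0) completed the 5, at log2 1.22 (SE 0.32) and 0.88 (SE 0.35). *Cacna1h* was at 259 and 304 against 598 and 579.9 (log2 -1.07, SE 0.15, adjusted p = 0.0765), below WT as in the other colony. *Tpsg1* was at 1196 and 936 against 1533 and 1474. *Myrip* was at 421 and 404 against 456 and 468 (-0.16, SE 0.13), and *Rab3b* at 19.0 and 6.04 against 18.1 and 40.0 (-1.24, SE 0.70), and leaving out 1 library gave -1.99 to -0.48. The median change was 0.99, and the enteroendocrine sum was 27920 and 34410 against 19550 and 23120. The goblet cell sum, again without *Muc2*, was 357400 and 379300 against 314200 and 323100. It was again led by *Fcgbp* (222300 and 128800), with a median log2 change of -0.32 over 7 markers. Stroma and muscle (173.5 and 870.2 against 119.6 and 141) and enteric glia (20.1 and 52.3 against 13.9 and 15.1) sums were also higher without overlap, and the part of these lists in the 8 genes was not tested in either proximal table. The difference between the Mtg16-/- and Mtg16 T/T changes, each estimated by limma in its own table, passed the test in 0 of the 8 genes and in 47 of 13622 genes (0.345%). It was 1 of the 8 at an unadjusted p under 0.05, *Rab3b*, where 7.4% of all genes were. It had the largest difference of the 8 (log2 2.85, SE 1.02, adjusted p = 0.477). The other 7 differences lay between -0.57 (*Cadps*, SE 0.54) and 0.81 (*Pclo*, SE 0.48).

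**Figure D2:**
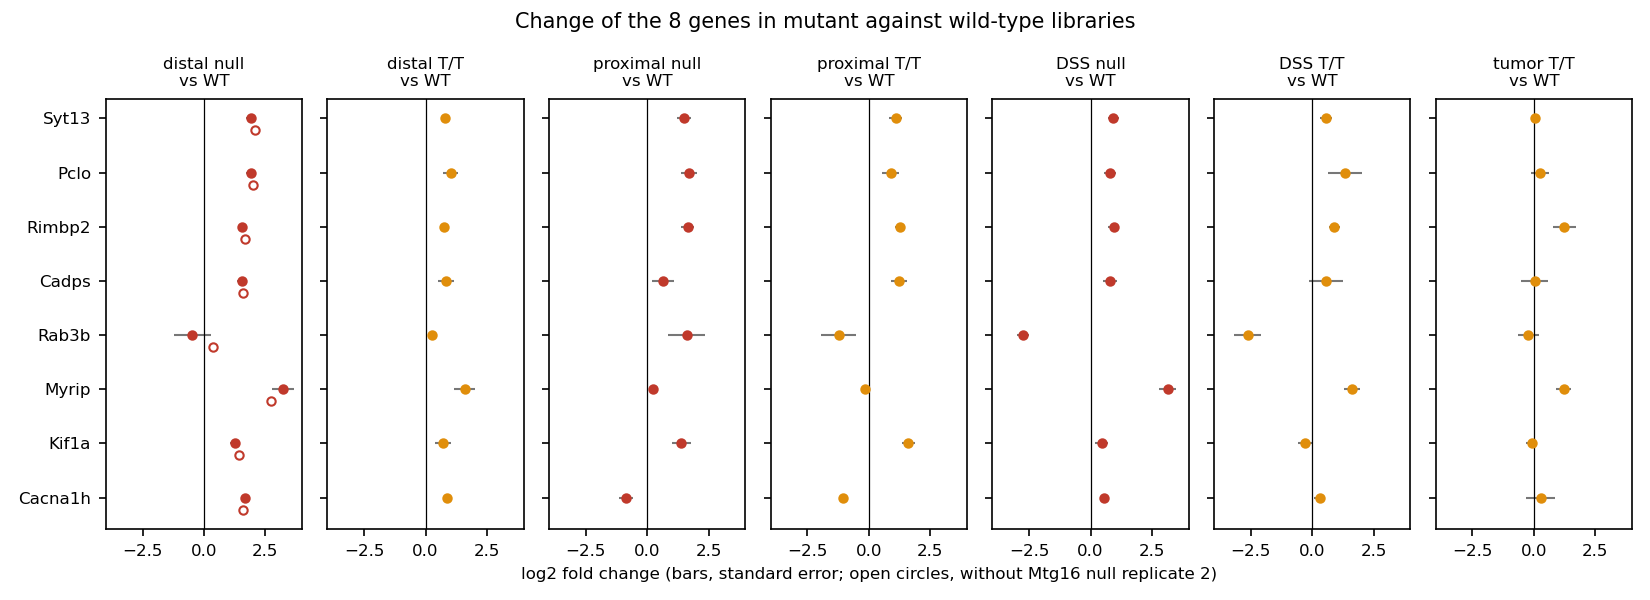
Log2 fold change of each gene (rows) in mutant against WT libraries for 7 comparisons (panels); points are limma estimates, bars are the standard error, and open circles give the distal Mtg16-/- change without replicate 2. *Cacna1h* lay at 1.67 and 0.88 in the distal panels and at -0.86 and -1.07 in the proximal ones, and *Rab3b* at -2.75 and -2.63 after DSS.

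In untreated crypts *Cacna1h* thus lay above WT in every mutant distal library and below WT in every mutant proximal library, in both mutants. The distal Mtg16-/- libraries include the one that stood apart, which had the highest *Cacna1h* of its group, at 598. Without it the other distal Mtg16-/- libraries still lay above WT (log2 1.58). The difference between the segments was not tested, because the distal values chose the gene. *Myrip* was above WT in every distal Mtg16 T/T library and below it in both proximal ones.

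After DSS and recovery, *Rab3b* and *Myrip* separated furthest from WT among the 8 genes. In Mtg16-/- crypts *Rab3b* was at 43.4, 50.6, 46.3 and 62.1 against 314, 444 and 290.0 in WT. It fell to 0.149 times the WT level (log2 -2.75, SE 0.26, limma adjusted p = 0.00292). *Myrip* was at 148, 217, 254 and 127 against 18.4, 15.6 and 25.5, and rose 8.84-fold (log2 3.14, SE 0.33, adjusted p = 0.00584). Both calls held without any one library, under edgeR (0.363% of 14597 genes called higher, 0.281% lower) and DESeq2 on recovered reads, and with the transcript length trend removed. Thus 1 of the 8 genes was called higher and 1 lower, where 0.38% and 0.249% of 14476 genes were.

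The other 6 genes were higher in every DSS-treated Mtg16-/- library than in every WT library and were not called by limma. *Syt13* was at 206, 285, 279.6 and 264 against 147, 106 and 154 (log2 0.94, SE 0.23, adjusted p = 0.107), and *Rimbp2* at 318, 402, 471 and 334 against 166, 178 and 249.8 (0.95, SE 0.23, adjusted p = 0.104). *Pclo* was at 117 to 183 against 80.0 to 95.7 (0.80, SE 0.25), and *Cadps* at 78.1 to 95.7 against 37.8 to 62.0 (0.80, SE 0.28). *Cacna1h* was at 229 to 284 against 152 to 177 (0.57, SE 0.20) and *Kif1a* at 88.3 to 106 against 56.7 to 85.7 (0.46, SE 0.26). With *Myrip*, 7 of the 8 were higher and 1 lower without overlap, where 6.18% and 5.26% of genes were. At an unadjusted p under 0.05, 6 were higher and 1 lower, where 7.94% and 4.46% of all genes were, and the median change was 0.80.

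Same-numbered Mtg16-/- and WT libraries deviated together in this comparison, and the fit with the replicate number as a block, which drops the unmatched Mtg16-/- replicate 4, called 3 genes higher: *Myrip*, *Rimbp2* (log2 1.01, adjusted p = 0.00826) and *Syt13* (0.92, adjusted p = 0.0405). That fit called 5.64% of 14490 genes higher and 3.1% lower. DESeq2 on the recovered reads called 4 higher: *Myrip*, *Syt13* (adjusted p = 0.00371), *Rimbp2* (0.00479) and *Pclo* (0.0364), where it called 3.29% of 15889 genes higher and 1.62% lower. *Rab3b* was called lower in both fits.

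Other genes that mark the segments moved in the same libraries. *Hoxd13* was at 816, 2864, 1283 and 1878 in Mtg16-/- crypts after DSS against 3321, 3787 and 3549, and *Abca12* at 277, 269.6, 440.3 and 175 against 81.1, 111 and 75.7. *Hoxd13* was below and *Abca12* above WT without overlap, though *Abca12* stayed far below its level in untreated proximal crypts. Of the other 3 segment genes, *Hoxd12* was lower without overlap (22.9 to 88.4 against 129 to 227), and *Hoxb13* (12900 to 18930 against 16640 to 29050) and *Atp12a* (7263 to 18350 against 17480 to 38430) overlapped. The enteroendocrine sum was 35380 to 41500 against 21140 to 28660, and 1 of its 20 markers was called. Immune markers summed to 2352 to 7966 against 866 to 1880. The 6 tuft cell markers had a median log2 change of -1.05, and limma called *Dclk1* (-2.13, adjusted p = 0.0113) and *Trpm5* (-2.07, adjusted p = 0.0262) lower, as it did the secretory lineage factor *Atoh1* (-1.16, adjusted p = 0.0165). The part of any of these in the 8 genes was not tested.

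In Mtg16 T/T crypts after DSS *Rab3b* and *Myrip* had the same directions. *Rab3b* was at 40.8, 55.8 and 54.0 against 408, 578 and 130.1 (log2 -2.63, SE 0.56, limma adjusted p = 0.232), and *Myrip* at 157, 126 and 91.2 against 45.2, 30.1 and 42.2 (1.63, SE 0.33, adjusted p = 0.211). Neither overlapped WT and neither was called by limma. limma and edgeR called 0 of the 8 genes, and also 0% of all 13648 and 13678 genes they tested, in either direction. At an unadjusted p under 0.05 limma had 2 of the 8 higher, *Rimbp2* and *Myrip*, and *Rab3b* lower, where 3.75% and 5.02% of all genes were. DESeq2 on recovered reads called the same 3, *Myrip* (adjusted p = 0.00194), *Rimbp2* (0.0323) and *Rab3b* (6.07e-05), where it called 0.946% of 14588 genes higher and 1.1% lower.

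*Rimbp2* was at 506, 511 and 441 against 234, 239 and 316 (log2 0.90, SE 0.23, adjusted p = 0.285), and *Syt13* at 190.0, 262 and 272 against 152, 167 and 162 (0.57, SE 0.25). *Cacna1h* was at 292, 275 and 358 against 251, 227 and 264 (0.31, SE 0.22). These 3 and *Myrip* were higher and *Rab3b* lower without overlap, where 5.66% and 8.02% of genes were. *Pclo* (30.1, 104 and 39.1 against 10.6, 13.4 and 47.4) and *Cadps* (70.8, 130.2 and 22.3 against 31.8, 27.9 and 71.5) overlapped, and the log2 change of *Cadps* ran from 1.25 without Mtg16 T/T replicate 3 to 0.001 without replicate 2. *Kif1a* was at 71.7 to 98.7 against 84.7 to 133 (-0.29, SE 0.29). The median of the 8 changes was 0.56. In this table the dependence on transcript length differed between libraries, from log2 -0.77 to 1.05 per factor of 10 in length, and the longest transcripts of the 8 genes run from 3327 bases (*Rab3b*) to 20084 (*Pclo*). With that trend removed, the changes were 0.72 for *Pclo*, 0.25 for *Cadps*, -0.62 for *Kif1a*, 0.63 for *Rimbp2* and -0.02 for *Cacna1h*.

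The difference between the limma changes of Mtg16-/- and Mtg16 T/T crypts after DSS passed the test in 0 of the 8 genes and in 2 of 13536 genes (0.0148%). It was -0.12 for *Rab3b* (SE 0.62, adjusted p = 0.952) and 1.51 for *Myrip* (SE 0.47, adjusted p = 0.763), the largest of the 8 and the 1 gene at an unadjusted p under 0.05, where 4.62% of all genes were. *Hoxd13* was at 1288, 2416 and 894 against 1845, 1923 and 3861 in these Mtg16 T/T libraries and *Abca12* at 146, 248 and 24.2 against 37.4, 44.6 and 16.4, and both overlapped. The other 3 segment genes were lower without overlap, *Hoxd12* at 40.8 to 174 against 177 to 298, *Hoxb13* at 9518 to 19010 against 21710 to 26310 and *Atp12a* at 7282 to 21420 against 29000 to 61810. The enteroendocrine sum, 27710 to 35150 against 26070 to 34150, overlapped too. In the same libraries the goblet cell sum was lower without overlap (676400 to 769500 against 1120000 to 1292000, median log2 change -0.69) and the immune sum higher (963 to 1349 against 605 to 937), the 6 tuft cell markers had a median log2 change of -1.88, and the part of these lists in the 8 genes was not tested.

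**Figure D3:**
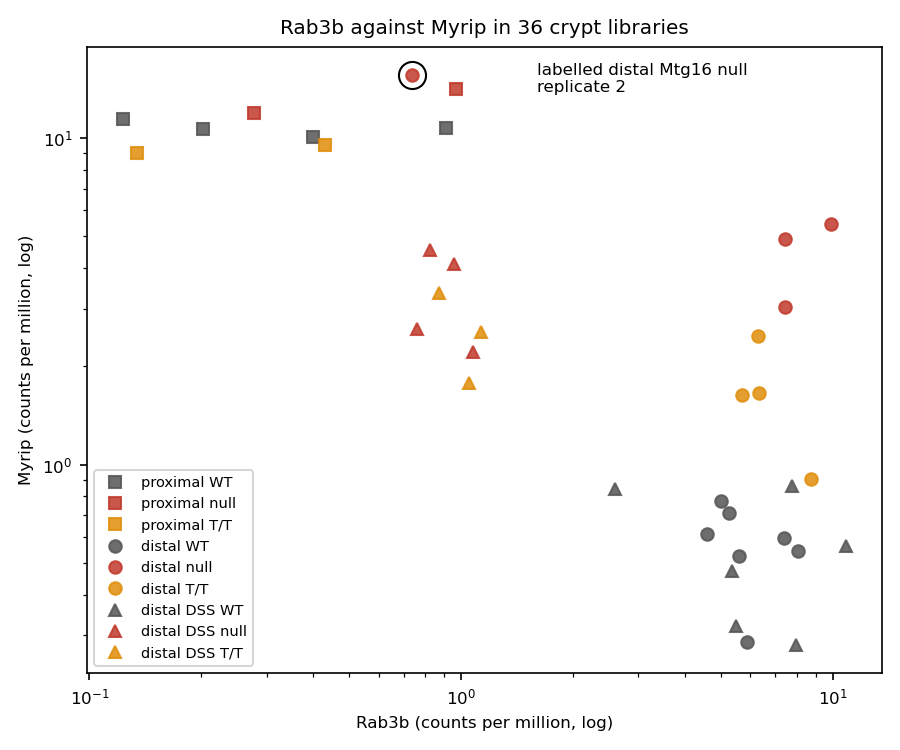
CPM of *Rab3b* (horizontal) against *Myrip* (vertical), both on log axes, in the 36 crypt libraries; squares are proximal, circles untreated distal and triangles DSS-treated distal libraries, in grey (WT), red (Mtg16-/-) or orange (Mtg16 T/T). The 7 mutant DSS libraries lay at 0.761 to 1.13 CPM of *Rab3b*, apart from the WT DSS libraries at 2.60 to 10.8, and the circled library is the one labelled distal Mtg16-/- replicate 2.

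WT crypts after DSS were also set against untreated WT crypts of the Mtg16 T/T colony. These untreated libraries helped to choose the genes and the 2 sets carry different header prefixes, so the values are a description and treatment and prefix cannot be told apart. *Syt13* was at 140.2, 155 and 153 after DSS and 126, 123 and 114 before (log2 0.30), and *Cacna1h* at 230.5, 211 and 251 against 129.8, 171 and 164 (0.58). *Rab3b* was at 375, 536 and 123 against 258, 277 and 237 and *Myrip* at 41.6, 27.9 and 40.0 against 24.3, 13.5 and 36.9, and both overlapped. The changes of the 8 genes lay between -0.67 (*Pclo*) and 0.62 (*Myrip*), in a comparison where 14% of 13566 genes were called higher and 21.6% lower. With the length trend removed all 8 were above 0, between 0.31 (*Rab3b*) and 1.27 (*Cacna1h*). Without that removal, limma called 6 of 20 enteroendocrine markers higher and 1 lower, and 5 of 7 goblet cell markers higher and 0 lower. The part of these lists in the 8 genes was not tested.

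In azoxymethane and DSS tumors the genotypes overlapped in 7 of the 8 genes. The exception was *Myrip*, at 114, 219 and 154 in Mtg16 T/T tumors against 75.8, 69.6 and 57.4 in WT (log2 1.21, SE 0.29, limma adjusted p = 0.998). *Rimbp2* was at 123, 199 and 97.4 against 97.95, 29.1 and 60.5 (1.25, SE 0.47, adjusted p = 0.998), and only its lowest mutant value lay within the WT range. Without overlap 2.98% of 15900 genes were higher and 2.53% lower. limma called 0 of the 8 genes and 0% of all genes in either direction, and edgeR (0% of 15883 genes in either direction) and DESeq2 called 0 of the 8. At an unadjusted p under 0.05, *Rimbp2* and *Myrip* were the 2 genes higher and 0 were lower, where 1.48% and 0.981% of all genes were. DESeq2 called 0.0977% of 15359 genes higher and 0.0977% lower. In the same tumors the enteroendocrine and enteric neuron markers had median log2 changes of 1.12 and 1.23, with 0 called by limma. Their summed levels overlapped, at 126 to 229 CPM in Mtg16 T/T against 36.1 to 131 in WT and at 31.8 to 48.2 against 31.6 to 47.0. The part of these lists in the 8 genes was not tested.

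The other 6 genes had tumor changes between log2 -0.22 (*Rab3b*) and 0.28 (*Cacna1h*). *Syt13* was at 744, 868 and 906 against 883, 773 and 782, and *Kif1a* at 799.8, 949 and 1282 against 784, 1303 and 1147. *Cacna1h* (529, 1425 and 514 against 1188, 270.3 and 675) and *Cadps* (227, 715 and 424 against 185, 684 and 506) varied widely within each genotype. *Rab3b* was at 33.2 to 81.6 against 43.1 to 97.95, and *Pclo* at 28.8 to 53.6 against 27.9 to 44.9.

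Between tissues, *Syt13* and *Kif1a* were higher in all 6 tumors than in any of the 36 crypt libraries on the CPM scale. *Syt13* was at 15.3 to 19.1 CPM in tumors, and its highest crypt group, distal Mtg16-/-, at 6.53 to 11.8. *Kif1a* was at 16.1 to 27.2 CPM in tumors, against 3.91 to 6.996 in that group. *Cadps*, at 3.82 to 14.7 CPM in tumors, overlapped distal Mtg16-/- crypts at 3.22 to 3.98. *Rab3b* in tumors (0.700 to 2.02 CPM) was below all untreated WT distal crypts (4.60 to 8.07). Tumors were dissected whole and carried separate tables, and stroma and muscle markers summed to 2092 to 3848 CPM there against 1.48 to 64.0 in crypts, so tissue composition and expression cannot be told apart. The enteroendocrine sum was 36.1 to 229 CPM in tumors and 379 to 1200 in crypts. *Sox10* was at 12.1 to 82.7 normalized counts in tumors, so glial RNA was detectable there.

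*Rimbp2* was at 11.6 counts per 1000 enteroendocrine marker counts in crypts (range 5.29 to 19.9, n = 36) and at 16.6 in tumors (15.4 to 18.0, n = 6), so its ranges overlapped between tissues. The ranges of *Rab3b* (medians 6.79 and 10.5), *Myrip* (3.14 and 17.7) and *Pclo* (2.00 and 6.37) overlapped too. *Syt13* was at 5.94 (3.30 to 10.0) in crypts and 145 (78.2 to 446) in tumors, *Kif1a* at 3.96 and 169, *Cadps* at 2.40 and 67.8 and *Cacna1h* at 8.88 and 142, without overlap in these 4 genes. Within crypts, after the mean of each condition was taken off, Pearson's r with the enteroendocrine sum over the 36 libraries was 0.72 for *Kif1a*, 0.63 for *Syt13*, 0.60 for *Pclo*, 0.50 for *Cadps*, 0.45 for *Cacna1h* and 0.37 for *Rimbp2*. It was 0.08 for *Rab3b* and -0.05 for *Myrip*, and -0.12 and 0.17 without the library that stood apart. These are descriptions over libraries that share preparation and depth within a table.

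**Figure D4:**
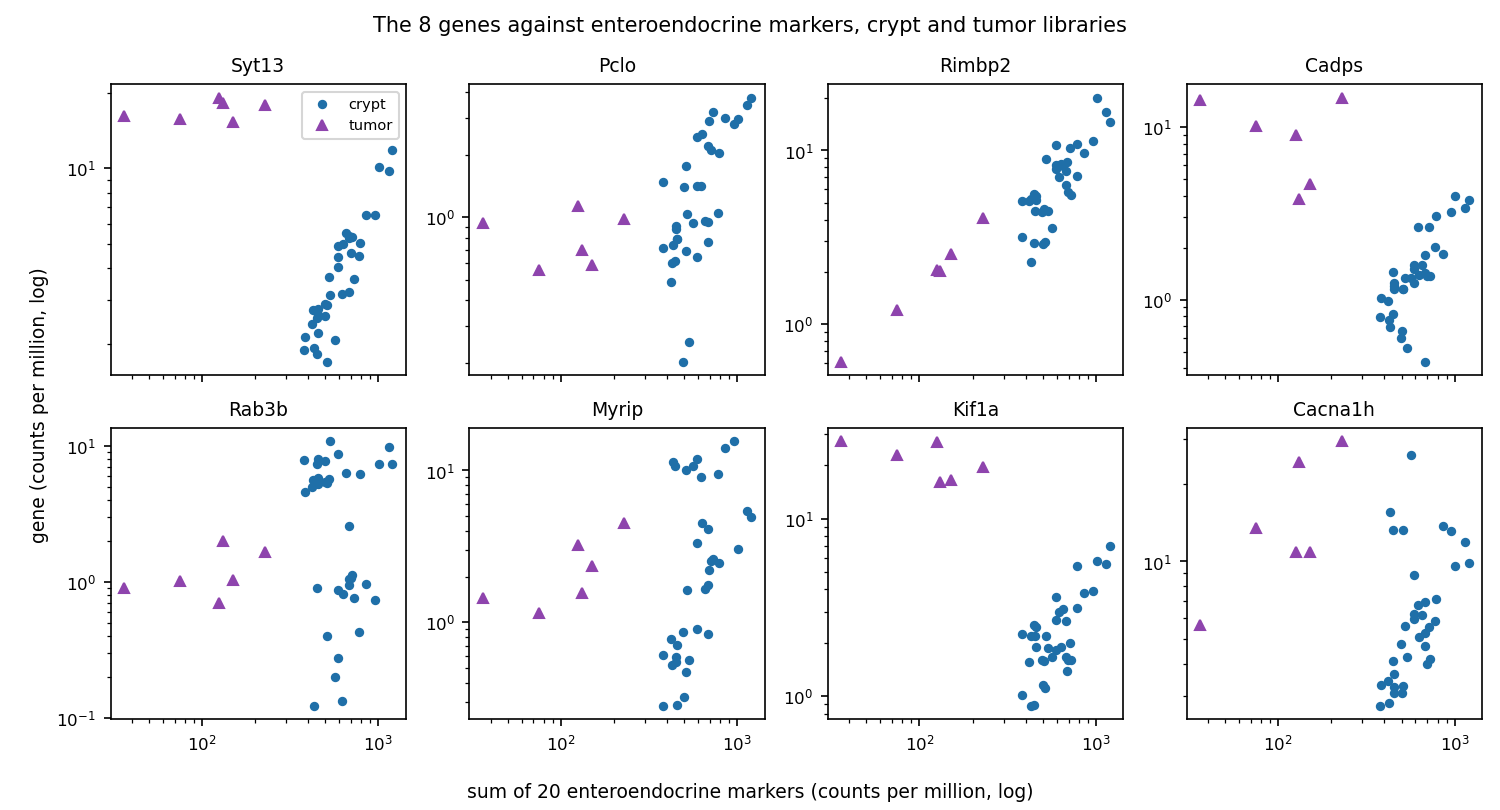
CPM of each gene (vertical) against the summed CPM of 20 enteroendocrine markers (horizontal), both on log axes, in 36 crypt libraries (circles) and 6 tumors (triangles). *Rimbp2* was low in tumors together with the marker sum of 36.1 to 229 CPM, while *Syt13* and *Kif1a* stood above every crypt library there.

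The genes most like each member were sought over 42 libraries after condition means were taken off, among 13093 genes. *Rimbp2* was nearest to *Disp2* (r = 0.819) and *Cadps* to *Lrrn3* (0.885), *Pclo* to *Rasal2* (0.782), *Syt13* to *Aoc1* (0.782), *Kif1a* to *Pcyt1b* (0.685) and *Cacna1h* to *Col6a5* (0.815), with the granin gene *Chga* at 0.790. For *Rab3b* the nearest was *Slc35a2* (0.822) and for *Myrip* *Rasgrf2* (0.821). Over the 41 libraries without the one that stood apart, the nearest gene became *Tspan13* (0.613) for *Rab3b*, *Shc2* (0.732) for *Myrip*, *Cadps* (0.693) for *Kif1a* and *Disp2* (0.835) for *Cacna1h*. Without it *Tph1* reached 0.796 with *Rimbp2*. Over the 28 pairs of the 8 genes r ran from -0.579 to 0.674 with a median of 0.158 (42 libraries), with *Rab3b* and *Myrip* at the low end and *Cadps* and *Kif1a* at the high end. Without the library that stood apart it ran from -0.249 to 0.760 with a median of 0.183, *Rimbp2* and *Cacna1h* were the pair at 0.760, and *Rab3b* and *Myrip* were at -0.069.

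The rest of the exocytosis machinery was read from 104 other genes in 7 lists, of which 96 could be tested in at least 1 table. In distal Mtg16-/- crypts 79 were tested, 2 were called higher and 0 lower (0.239% and 0% of all genes), and their median log2 change was -0.01, beside 1.61 for the 8 chosen genes. The 2 were voltage-gated calcium channel subunits: the P/Q-type pore *Cacna1a* (log2 1.17, SE 0.14, limma adjusted p = 0.0175) and the auxiliary subunit *Cacna2d1* (1.99, SE 0.25, adjusted p = 0.0201). Without the library that stood apart 6 of 79 were called higher, in a fit that called 0.969% of all genes higher. The added genes, named after their values were seen, included the SNARE *Snap25* (log2 1.55), the priming factor *Unc13a* (1.58) and the complexin *Cplx2* (0.96). In the other mutant comparisons limma called 0 of the 74 to 94 tested genes in either direction, and the list medians were 0.05 in proximal Mtg16-/-, 0.04 in proximal Mtg16 T/T, 0.03 in distal Mtg16 T/T, -0.03 and -0.08 after DSS and 0.06 in tumors. For the 8 chosen genes the medians were 1.45, 0.99, 0.81, 0.80, 0.56 and 0.15, and for all genes between -0.01 and 0.03. The distal baseline medians of the 8, 1.61 and 0.81, follow from the choice of the genes, and nothing is read from them. With limma's unadjusted p under 0.05, 5 pathway genes were higher and 3 lower of 82 in proximal Mtg16-/- (2.76% and 3.2% of all genes), and 9 and 7 of 78 in proximal Mtg16 T/T (6.7% and 5.3%). In distal Mtg16-/- they were 12 and 2 of 79, where 458 and 183 of all 13831 genes were. Without the library that stood apart they were 14 and 2 of 79, where 556 and 255 of 13720 genes were. There were 8 and 1 of 77 in distal Mtg16 T/T (3% and 1.65% of all genes), 9 and 10 of 81 in Mtg16-/- after DSS (7.94% and 4.46%), 3 and 7 of 74 in Mtg16 T/T after DSS (3.75% and 5.02%), and 3 and 1 of 94 in tumors (1.48% and 0.981%). edgeR called 0 in the DSS and tumor tables, and DESeq2 called 4 higher and 4 lower in Mtg16-/- after DSS (3.29% and 1.62% of all genes), 0 and 3 in Mtg16 T/T after DSS (0.946% and 1.1%) and 0 in tumors (0.0977% in each direction). The 3, *Cacna2d2*, *Rims4* and *Syt7*, were also among the 8 called in Mtg16-/-, and were named after their values were seen.

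Between segments of WT colon 30 of 78 tested pathway genes were higher distally and 12 lower, where 20.1% and 22% of all genes were. The kinesin *Kif5c* was 186.8 distally and 28.4 proximally on average (log2 2.62, SE 0.22, adjusted p = 3.57e-07). The liprin *Ppfia3* (775 and 2520, log2 -1.71, adjusted p = 1.3e-06), *Cacna2d1* (-0.83) and the synaptotagmin *Syt2* (-1.48) were lower distally. *Stxbp6* (0.69) was higher and *Stxbp3* (-0.21) lower, and the Rab3 regulator *Madd* (0.46), the Rab27 effector *Mlph* (0.40) and *Rab3d* (0.25) were higher distally. After DSS in WT crypts 10 of 75 were higher and 10 lower, where 14% and 21.6% of all genes were. *Syt2* (log2 1.64), *Ppfia3* (0.86), *Rab3d* (0.74), *Mlph* (0.59) and *Madd* (0.49) were higher, and *Stxbp3* (-2.04), *Cacna2d1* (-2.13), *Kif5c* (-1.30) and *Stxbp6* (-1.21) lower, each at a limma adjusted p between 0.0165 and 0.0321. Treatment and header prefix cannot be told apart in this comparison. The dependence on transcript length also differed, at log2 0.49 to 0.57 per factor of 10 in length in untreated libraries and -1.06 to 0.23 after DSS. That trend was not removed from these values.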

How the data were processed

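RNA-seq was performed by the authors on 36 crypt and 6 tumor samples. Per the methods and labels, reads were trimmed with fastp 0.20.0, quantified with Salmon 1.3.0 against GENCODE mouse transcripts (mm10) and scaled with DESeq2 1.26.0 in R 3.6.3. The deposited values are DESeq2 size-factor normalized gene counts (a per-library signal scaled within each table), with genes of almost no reads left out. Scaling within a table means that levels set across tables rest on CPM computed from each library's total. The authors' own fold changes and p-values in the tables were not used, and 0 columns of other samples were present. Estimated counts from transcripts need not be whole and divide reads between overlapping or similar genes.

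In each table limma 3.58.1 was fitted to genes whose normalized count averaged 10 or more, on log2(normalized count + 1) with genotype as the only term, and p-values were Benjamini-Hochberg adjusted over all genes of the table, with a threshold of 0.05. Whole reads were recovered for 38 libraries (all values whole within 0.1 reads) and tested with edgeR 4.0.16 and DESeq2 1.42.0 as alternatives. Other alternatives were a pseudocount of 0.1, no filter, TMM scaling, leaving out each library, a replicate block, single header prefixes or colonies, and, chosen after seeing the data, removal of the transcript length trend and leaving out the library that stood apart. The scripts were tested on simulated data. Replicate numbers were taken to pair libraries where every same-numbered pair of at least 3 correlated above 0.1 in its deviations from the group means, which held for Mtg16-/- after DSS (0.554, 0.46 and 0.317).

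The 8 genes, and the pathway and marker lists, were chosen with earlier results of these data known. Named pathway genes were those called in at least 2 of the 9 tables, at most 3 per list by smallest adjusted p. Some genes that these rules name are not reported here. The 3 genes most like each of the 8 were ranked by Pearson's r on log2(CPM + 1). Promoter windows are from RefSeq, assembly GRCm38.p6.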

Additional observations from a re-analysis of the deposited data

Results flagged for a closer look

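Dixon's ratio was taken for the 8 genes and the 5 segment genes in each of the 4 groups of 4 libraries, 52 ratios, and 8 were above 0.829, which chance gives in about 1 of 20. The ratios only point to single libraries, since 3 of these groups took part in choosing the 8 genes and the segment genes were chosen after their values were seen. Among the 8 genes, *Cacna1h* was at 190.1 in distal WT replicate 1 of the Mtg16-/- colony and at 287 in distal Mtg16 T/T replicate 3, *Cadps* was at 122 in distal Mtg16 T/T replicate 3 and at 95.7 in Mtg16-/- replicate 2 after DSS, and *Rab3b* was at 345 in distal Mtg16 T/T replicate 2. Each was the highest of its 4 libraries. *Abca12* was at 9746 in the library labelled distal Mtg16-/- replicate 2, at 22.9 in distal WT replicate 4 of that colony and at 58.1 in distal Mtg16 T/T replicate 4.

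In untreated crypts the mutant change of *Cacna1h* had opposite signs in the 2 segments, with every mutant library on 1 side of every WT library: log2 -0.86 proximally and 1.67 distally (1.58 without the library that stood apart) in Mtg16-/- crypts, and -1.07 and 0.88 in Mtg16 T/T crypts. *Myrip* did so in Mtg16 T/T crypts, at -0.16 proximally and 1.59 distally. These differences were not tested, because the distal values chose the genes.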

How the results depend on the processing

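For changes of single genes, 579 alternative values were counted as like the value reported. In tested comparisons this meant the same direction and side of the threshold. In untested comparisons it meant a shift smaller than the spread between replicates, whatever the sign. Of the tested changes, 10 passed the threshold only under the alternative and 13 changed sign, and 13 of the untested changes moved by more than that spread. The counts of called genes moved in few settings. With a replicate block, *Rimbp2* (adjusted p = 0.0432) was the 1 gene called higher and *Cacna1h* (adjusted p = 0.0409) the 1 called lower in proximal Mtg16 T/T crypts, from 2 pairs of libraries with correlations of 0.147, too few pairs to show that the numbers pair them, in a fit that called 0.45% of all genes higher and 0.646% lower; after DSS in Mtg16-/- crypts the block gave 3 higher and DESeq2 4, and after DSS in Mtg16 T/T crypts DESeq2 gave 2 higher and 1 lower. The block changed no other call of the 8 genes; in the tables where the numbers did not pair the libraries, correlations ran from -0.766 to 0.369. Some changes reversed: *Cacna1h* after DSS in Mtg16 T/T crypts was -0.018 with the length trend removed, and *Cadps* in tumors was -0.011 with edgeR, -0.012 with DESeq2 and -0.006 with the length trend removed. Leaving out 1 library at a time gave tumor ranges that crossed 0 for *Syt13* (-0.013 to 0.128), *Cadps* (-0.521 to 0.458), *Rab3b* (-0.544 to 0.13), *Kif1a* (-0.303 to 0.065) and *Cacna1h* (-0.296 to 0.77), and in distal Mtg16-/- crypts for *Rab3b* (-0.86 to 0.38). Without a change of sign, the same omissions moved *Cadps* from 0.237 to 1.055 in proximal Mtg16-/- and *Pclo* from 0.816 to 1.978 in Mtg16 T/T crypts after DSS. Other changes also ran widely, among them *Cacna1h* in proximal Mtg16-/- crypts (-1.189 to -0.528) and *Rimbp2* (0.788 to 1.648) and *Pclo* (0.085 to 0.523) in tumors. The cause was not tested. In the proximal tables a group left with 1 library was assumed to vary like the other, and *Rab3b* fell below the filter without Mtg16-/- replicate 2. *Rab3b* in proximal crypts and *Pclo* in WT crypts after DSS rested on few reads, which limits the precision of their folds.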
